A study of Homo sapiens with 12 samples.

Results

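The genes described here encode the machinery that transcribes messenger RNA: the subunits of RNA polymerase II, the Mediator complex, the general transcription factors TFIIA to TFIIH, the elongation kinase P-TEFb and the TFII-I family. They were taken by gene symbol from the Huh7 expression table, with rows described as pseudogenes left out, and 78 of the 60666 listed genes met the rule. Huh7 is an established human hepatocellular carcinoma line. The 6 libraries analysed were 3 control libraries (labelled Control group) and 3 libraries of cells carrying a lentiviral short hairpin RNA against FAM111B (labelled FAM111B knockdown, here shFAM111B). According to the methods the hairpins were delivered with lentiviral constructs for stable knockdown and the infected cells were selected with puromycin, so both arms carry a construct, and whether each line is a pool or a clone is not stated. The Hep3B libraries were not analysed here. Nothing in the labels says that the 3 libraries of a group came from separate cultures, so the p-values below measure only the spread between these libraries.

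RNA polymerase II is the enzyme that copies protein-coding genes into RNA, and its subunits assemble into a single body around the DNA cleft formed by the largest and the next largest subunit. TFIID, which contains the TATA-binding protein TBP and the TBP-associated factors (TAFs), recognises the promoter, and TFIIA, TFIIB, TFIIE, TFIIF and TFIIH complete the assembly that opens the DNA and lets the polymerase start. Mediator carries signals from enhancer-bound factors to the polymerase, and its detachable kinase module limits that contact. P-TEFb, a kinase made of CDK9 and a cyclin T, releases polymerases that have paused shortly after the start.

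The hairpin target is shown because it defines the comparison. It is printed 5′ to 3′ with the 7 bases that would pair with the seed of the guide strand (guide bases 2 to 8) in capitals, taking the guide to be the reverse complement of the target.

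shFAM111B target: ctgcctagtgaTTCTCATt

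All 19 bases were found in transcripts of 1 gene, FAM111B, in the coding sequence at chr11:59124545-59124563 on the plus strand (GENCODE release 29, GRCh38). FAM111B encodes a trypsin-like protease. Its level was 7.84, 8.29 and 7.99 TPM in the control libraries and 0.96, 1.13 and 0.84 TPM in the shFAM111B libraries. TPM is a relative measure of transcript abundance, corrected for transcript length, in which the values of a library add up to a fixed total. The groups did not overlap, and the log2 fold change of −2.20 (SE 0.113, limma adjusted p = 6.09e-06) went in the labelled direction. Among the members, the longest stretch shared with the target in any annotated transcript was 11 bases, in TAF10. The seed match TTCTCAT was present in the longest transcript of 19 of the 77 tested members (24.7%) and in 28.8% of all tested genes for which a transcript was found.

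The libraries of a group resembled each other more closely than those of different groups, with Pearson correlations of log2(TPM + 1) across genes of 0.969 to 0.984 within and 0.865 to 0.883 between groups. All 10 hepatocyte and hepatocellular carcinoma markers examined were above 1 TPM in every library. Their summed level was 27947 to 28518 TPM in control and 41574 to 46536 TPM in shFAM111B libraries. Single markers went both ways, with 4 of the 10 higher and 6 lower in every shFAM111B library than in any control library. AFP, the fetal counterpart of albumin, had 7044.67 to 7411.08 TPM in control and 21852.68 to 25038.14 TPM in shFAM111B libraries. APOB had 230.19 to 245.22 and 45.67 to 51.5 TPM, and HNF4A 95.71 to 99.64 and 38.5 to 42.98 TPM. Markers of other cell types were low. Of 4 leukocyte markers 2 reached 1 TPM in every library, with sums of 19.1 to 21.9 TPM in control and 23.8 to 26.1 TPM in shFAM111B libraries. Of 4 fibroblast markers 2 did so, with sums of 8.54 to 10.3 and 11.9 to 16.7 TPM, and of 4 endothelial markers 1 did so while another was at 0, with sums of 1.26 to 2.29 and 2.15 to 3.49 TPM. The part of these markers in the results was not tested. The deposited values are TPM without counts, so the sequencing depth behind them is unknown.

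Of the 78 members, 77 reached 1 TPM in at least 3 of the 6 libraries and entered the comparison of the 14394 genes that did so. The remaining member, MED12L, lay between 0.02 and 0.17 TPM. The call rule asked for a fold of at least 2, taken from log2(TPM + 1), together with an adjusted p under 0.05 (limma, Benjamini-Hochberg adjustment over all 14394 genes). By that rule 4 members rose in shFAM111B cells (5.19% of those tested, against 6.77% of all tested genes) and 19 fell (24.7%, against 23.7%). Calls among the members were therefore about as frequent as among all genes. The median member was at −0.39 and the median of all tested genes at −0.36 on the log2 scale. Because TPM are shares of a fixed total, a lower share and less RNA per cell cannot be told apart in these bulk libraries. The TPM of the control and shFAM111B libraries did not overlap for 68 of the 77 members (88.3%, against 75.2% of all tested genes). At an adjusted p under 0.05 without a minimum fold, 17 members were higher (21.1% of all genes were) and 46 lower (50.9% of all genes).

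The size of the shift of the median gene made the direction of small changes depend on how the libraries were scaled. Under median-of-ratios scaling the median of all tested genes was 0.03. There 11 members were called higher and 12 lower, against 14.0% and 12.5% of all genes. Upper-quartile scaling gave 9 members higher and 12 lower, with 13.1% and 13.2% of all genes. Quantile normalization gave 5 and 11, with 11.6% and 12.8% of all genes. Subtracting the median log2 value of each library gave 11 and 8, with 17.9% and 9.07% of all genes. All 4 members that rose did so under each of these 4 scalings, namely TAF10, POLR2L, POLR2I and GTF2H5. Of the 19 that fell, 8 did so under each of them, namely POLR2M, GTF2I, TAF2, MED13L, CCNT2, GTF2A1, MED13 and MED14. For these 12 genes the call was the same under all scalings compared here.

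**Figure D1:**
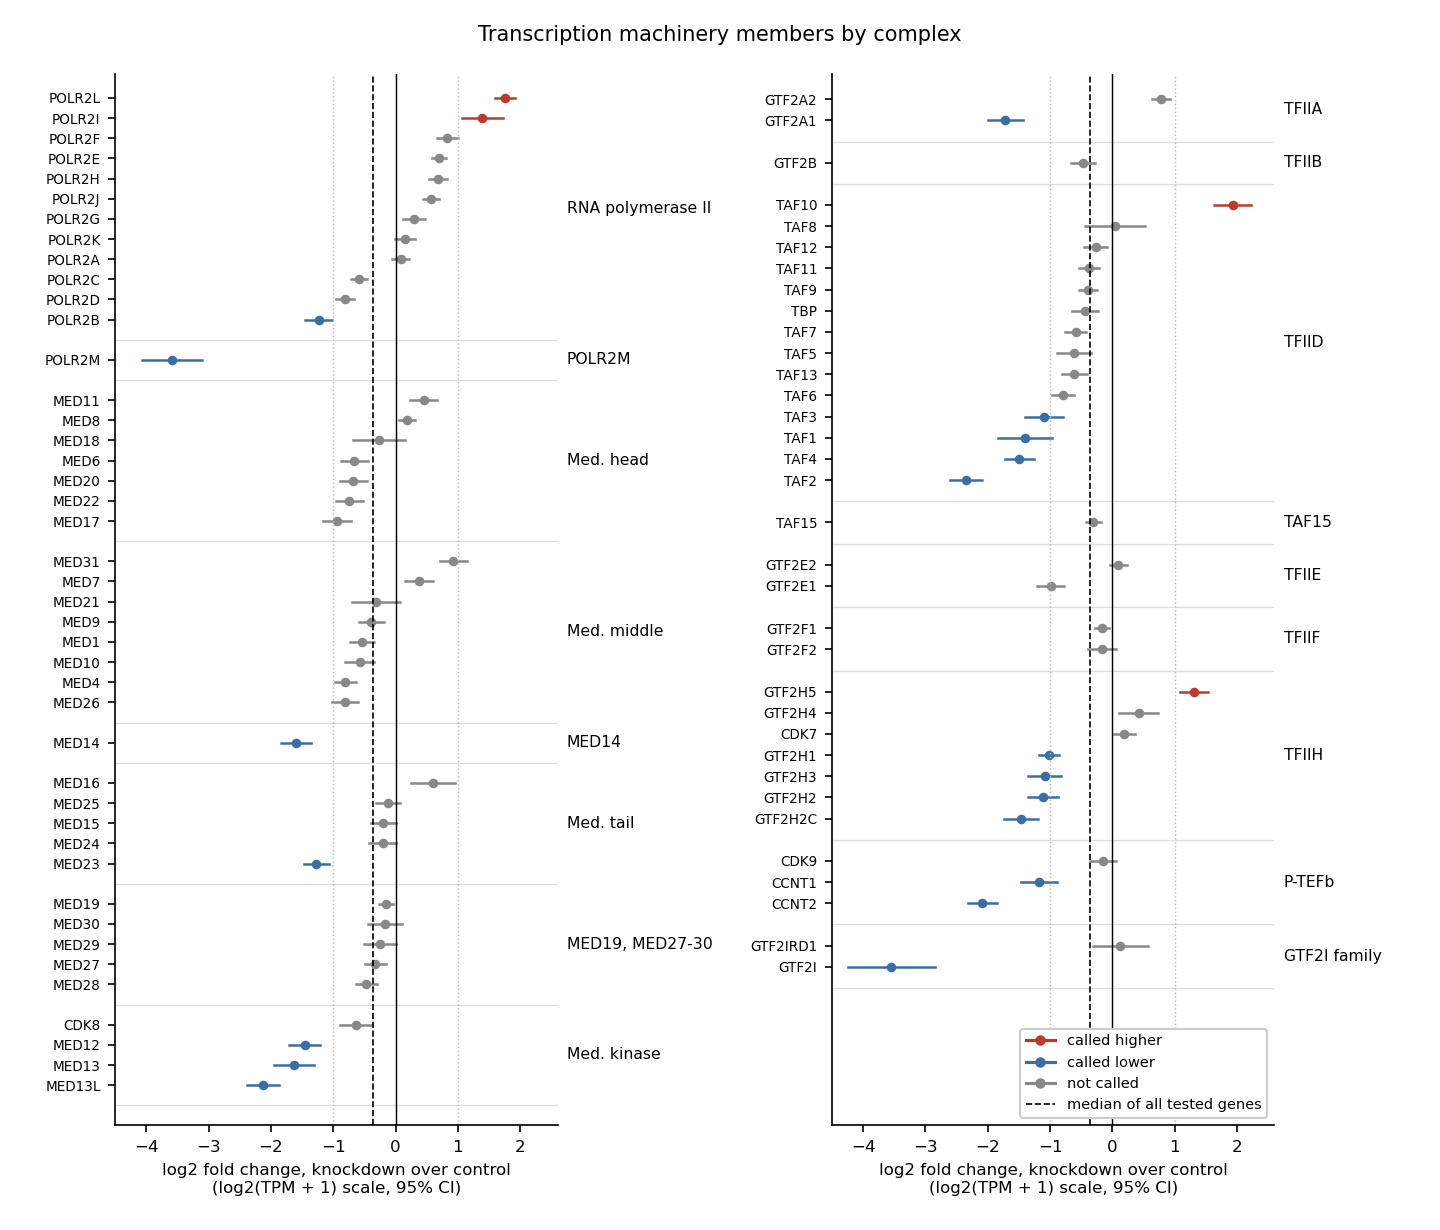
Log2 fold change (shFAM111B over control, log2(TPM + 1) scale, x axis) of the 77 tested members, grouped by complex, with 95% confidence intervals as bars. Red points rose and blue points fell by the call rule, grey points were not called, dotted lines mark a fold of 2, and the dashed line marks the median of all tested genes at −0.36. Subunits of RNA polymerase II spread from −1.23 to 1.76, and the kinase module of Mediator lies wholly left of the dashed line.

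Most subunits of RNA polymerase II stood above the median gene. Of the 12 core subunits, 2 rose (16.7%, against 6.77% of all tested genes) and 1 fell (8.33%, against 23.7%). On the log2 scale 9 of the 12 were above and 3 below 0, while the median of all tested genes was −0.36. At a limma adjusted p under 0.05 without a minimum fold, 7 were higher and 3 lower. Of all tested genes, 21.1% were higher and 50.9% lower by that measure. The median of the 12 was 0.43 in the deposited TPM and between 0.40 and 0.96 under the 4 other scalings. In the deposited TPM it was 0.79 relative to the median tested gene. Relative to genes of the same transcript length class it was 0.32. The summed level of the 12 transcripts was 1154 ± 5.52 TPM in control and 1766 ± 77.5 TPM in shFAM111B libraries (SD, n = 3 each).

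POLR2L, a small zinc-binding subunit that RNA polymerases I and III also contain, had 110.08, 110.18 and 114.41 TPM in control and 372.64, 350.56 and 416.82 TPM in shFAM111B libraries. Every shFAM111B library was above every control library. The log2 fold change was 1.76 (SE 0.0680, limma adjusted p = 2.99e-06), a 3.41-fold higher mean TPM. POLR2I, a zinc-binding subunit that contributes to start site choice and copying fidelity, had 57.61, 46.54 and 63.27 TPM in control and 149.58, 126.09 and 166.85 TPM in shFAM111B libraries, again without overlap. Its log2 fold change was 1.39 (SE 0.139, limma adjusted p = 9.53e-05). Part of the POLR2L and POLR2I exons overlap genes on the opposite strand, CD151 over 22.5% and TBCB over 32.9% of the exonic bases. CD151 had 100.05 to 111.39 TPM in control and 152.14 to 171.6 TPM in shFAM111B libraries, and TBCB had 63.82 to 73.39 and 86.98 to 94.58 TPM. The part of these neighbours in the values was not tested. The labels name a stranded library kit, and the strand setting of the counting is not given in the sources used here.

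POLR2B, the next largest subunit after POLR2A and with it the wall of the active centre, went the other way. It had 65.28, 68.81 and 62.94 TPM in control and 27.59, 30.55 and 24.24 TPM in shFAM111B libraries. The log2 fold change was −1.23 (SE 0.0898, limma adjusted p = 2.21e-05), with no overlap between the groups. Under the 4 other scalings it was between −0.94 and −0.70, which is below a fold of 2. POLR2A, the largest subunit and the bearer of the C-terminal repeat domain, was not called, at 142 ± 0.561 TPM in control and 151 ± 10.0 TPM in shFAM111B libraries (log2 fold change 0.08, limma adjusted p = 0.223, groups overlapping), and its log2 fold change was between 0.01 and 0.62 under the 4 other scalings. The ratio of POLR2L to POLR2B transcripts, which a single factor applied to a whole library cannot alter, was 1.70 ± 0.109 in control and 14.1 ± 2.90 in shFAM111B libraries.

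The other subunits shared with RNA polymerases I and III were POLR2E at a log2 fold change of 0.69, POLR2F at 0.83, POLR2H at 0.68 and POLR2K at 0.15. None of these passed a fold of 2 in the deposited TPM. POLR2E, POLR2F and POLR2H did so under median-of-ratios and upper-quartile scaling and under median centring. POLR2C and POLR2J bind each other at the start of polymerase assembly. Neither was called in the deposited TPM, with POLR2C at −0.59 and POLR2J at 0.56. POLR2J was called higher under median-of-ratios scaling and median centring. The ratio of POLR2C to POLR2J transcripts was 1.28, 1.16 and 1.28 in control and 0.550, 0.554 and 0.556 in shFAM111B libraries. POLR2J shares sequence with further copies, and with the TPM of 6 such genes added up the log2 fold change was 0.62. The stalk subunits POLR2D and POLR2G were at −0.81 and 0.29. The ratios given here and further on were chosen after the values were seen, and no test was run on them.

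**Figure D2:**
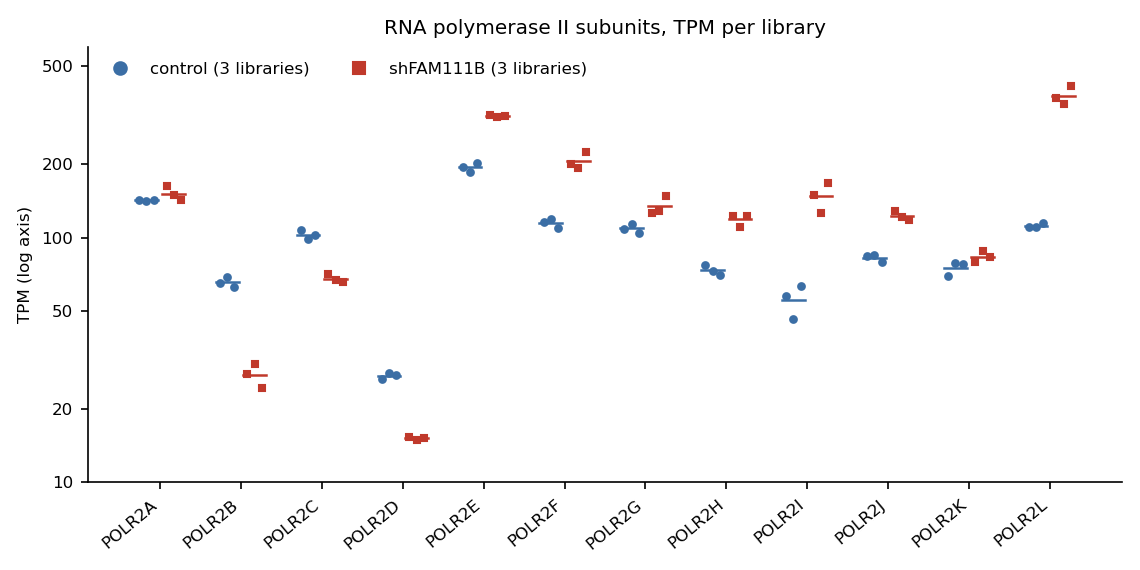
TPM of the 12 core subunits of RNA polymerase II (log axis) in each of the 3 control libraries (blue circles) and 3 shFAM111B libraries (red squares), with horizontal lines at the group means. POLR2L and POLR2I lie well above their control values, POLR2B, POLR2C and POLR2D lie below theirs, and the POLR2A groups overlap.

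POLR2M, named with the polymerase but not one of its core subunits, encodes Gdown1, which binds the polymerase and makes its start depend on Mediator. Its level was 117.05, 70.13 and 114.75 TPM in control and 8.18, 6.28 and 7.42 TPM in shFAM111B libraries. Control replicate 2 was the lowest of its group and was still more than any shFAM111B library. The log2 fold change was −3.58 (SE 0.204, limma adjusted p = 8.41e-06), the largest of any member in either direction. At chr15:57706629-57782762, 21.1% of its exonic bases also belong to GCOM1, a readthrough gene on the same strand, which had 0.943 ± 0.214 TPM in control and 0.267 ± 0.164 TPM in shFAM111B libraries. With GCOM1 and its partner MYZAP added, the sum was 103 ± 26.5 TPM in control and 9.17 ± 1.40 TPM in shFAM111B libraries, an 11.2-fold lower mean.

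In Mediator, the subunits that fell were 3 of the kinase module, the backbone subunit MED14 and the tail subunit MED23, and none was called higher in the deposited TPM. Of 31 Mediator genes 30 were tested and 5 fell (16.7%, against 23.7% of all tested genes). At an unadjusted p under 0.05 in limma, 5 were higher and 18 lower. By that measure 22.1% of all tested genes were higher and 52.0% lower. The median of −0.43 was close to the median of all tested genes, and it lay between −0.04 and 0.10 under the 4 other scalings. Under those scalings 1 to 2 Mediator genes were called higher and 3 to 4 lower. Of all tested genes, 11.6% to 17.9% were called higher there and 9.07% to 13.2% lower.

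Within the kinase module 3 of 4 tested members fell, where 23.7% of all tested genes did, and all 4 were below the median gene. The 3 that fell, MED12, MED13 and MED13L, have coding sequences over 2400 nt. Of all tested protein-coding genes of that length, 41.3% fell. Under median centring 2 members of the module were called lower. MED13L, which with its paralog MED13 tethers the module to core Mediator, had 17.43, 16.89 and 14.72 TPM in control and 2.89, 3.3 and 2.68 TPM in shFAM111B libraries. Its log2 fold change was −2.13 (SE 0.110, limma adjusted p = 6e-06). MED13 had 11.06, 10.45 and 10.44 TPM in control and 3.25, 2.99 and 2.12 TPM in shFAM111B libraries (log2 fold change −1.63, SE 0.137, limma adjusted p = 4.2e-05). For both paralogs all control libraries were above all shFAM111B libraries. MED12, which activates the kinase, had a log2 fold change of −1.46 (9.01 ± 0.545 TPM in control, 2.64 ± 0.251 TPM in shFAM111B libraries, limma adjusted p = 2.21e-05) and passed the rule under 3 of the 4 other scalings. The kinase itself, CDK8, was not called, at −0.63 (9.90 ± 0.607 TPM in control, 6.05 ± 0.737 TPM in shFAM111B libraries). The CDK8 to MED13L ratio was 0.611 ± 0.0941 in control and 2.05 ± 0.0338 in shFAM111B libraries. Of the paralog pair MED12 and MED12L, only MED12 was above the filter.

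MED14, the backbone that joins the head, middle and tail modules, had 12.85, 10.57 and 11.54 TPM in control and 3.11, 3.12 and 3.27 TPM in shFAM111B libraries. The log2 fold change was −1.60 (SE 0.104, limma adjusted p = 1.38e-05). The shFAM111B libraries were nearly identical and lay far below the controls. In the tail module MED23, a docking site for activators, fell from 12.3 ± 0.437 to 4.51 ± 0.0153 TPM (log2 fold change −1.27, limma adjusted p = 1.41e-05), and it was between −0.91 and −0.74 under the 4 other scalings, short of a fold of 2. The tail subunit nearest to no change was MED25, at −0.12. MED16, also in the tail, was at 0.59 in the deposited TPM. It was called higher under median-of-ratios scaling and median centring.

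None of the 7 head and 8 middle subunits was called in the deposited TPM, where 6.77% of all tested genes rose and 23.7% fell. At an unadjusted p under 0.05 in limma, 2 head subunits were higher and 4 lower, and 2 middle subunits were higher and 5 lower. Of all tested genes, 22.1% were higher and 52.0% lower at that threshold. MED8 in the head was at 0.18 and MED21 in the middle at −0.31, the ones nearest to 0. MED17, the head scaffold, was at −0.94, and at −1.01 without control replicate 3, where it met the rule. Under the 4 other scalings MED17 was between −0.56 and −0.41, short of a fold of 2. MED31 in the middle was at 0.93, and at 1.00 without control replicate 1, where it met the rule, as it did under each of the 4 other scalings. MED31 overlaps TXNDC17 on the opposite strand over 58.4% of its exonic bases, and TXNDC17 had 151.7 to 169.01 TPM in control and 296.76 to 305.84 TPM in shFAM111B libraries. In the set of MED19 and MED27 to MED30, kept apart from the modules here, no gene was called, with 3 lower at an unadjusted p under 0.05 in limma. MED19 was at −0.15 in the deposited TPM and between −0.01 and 0.38 under the other scalings.

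Among the general transcription factors, 2 of 28 members rose (7.14%, against 6.77% of all tested genes) and 9 fell (32.1%, against 23.7%). Under median-of-ratios and upper-quartile scaling 5 were called lower, under quantile normalization 4 and under median centring 2, with 2 to 3 called higher. Their median was −0.53, and it lay between −0.17 and 0.00 under the 4 other scalings.

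TFIIA stabilises TBP on the promoter and is made from the products of GTF2A1 and GTF2A2. GTF2A1, whose protein is cut into the larger chains, had 10.91, 8.64 and 10.39 TPM in control and 2.16, 2.4 and 2.42 TPM in shFAM111B libraries. Its log2 fold change was −1.72 (SE 0.119, limma adjusted p = 1.76e-05). GTF2A2, the small chain, was not called in the deposited TPM and had the opposite sign (log2 fold change 0.78). It had 77.62, 85.6 and 86.08 TPM in control and 135.01, 145.96 and 148.78 TPM in shFAM111B libraries. Under median-of-ratios and upper-quartile scaling and under median centring GTF2A2 was called higher. In neither gene did the groups overlap. The GTF2A2 to GTF2A1 ratio was 8.44 ± 1.40 in control and 61.6 ± 0.850 in shFAM111B libraries. GTF2B, which encodes TFIIB and places the polymerase at the start site, was at −0.48, and between −0.08 and 0.06 under the other scalings.

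TFIID held the member with the largest rise. TAF10, a histone-fold subunit that TFIID shares with the SAGA coactivator, had 36.76, 39.94 and 34.65 TPM in control and 126.33, 134.29 and 175.95 TPM in shFAM111B libraries. All shFAM111B libraries were above all controls, with replicate 3 the highest. The log2 fold change was 1.93 (SE 0.127, limma adjusted p = 1.45e-05), a 3.92-fold higher mean TPM. Its exons also overlap AC091564.7, a processed transcript on the same strand, which had 13.2 to 18.6 TPM in control and 25.06 to 53.27 TPM in shFAM111B libraries. Of its exonic bases 38.9% overlap ILK on the opposite strand. ILK had 130.8 to 142.61 TPM in control and 103.04 to 108.24 TPM in shFAM111B libraries. The part of AC091564.7 and ILK in the TAF10 values was not tested.

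Among the 14 TFIID subunits 4 fell (28.6%, against 23.7% of all tested genes). TAF2, which contacts the initiator element, had 17.98, 14.93 and 15.28 TPM in control and 2.17, 2.55 and 2.33 TPM in shFAM111B libraries (log2 fold change −2.35, SE 0.110, limma adjusted p = 4.55e-06). Every control library was far above every shFAM111B library. TAF4, a scaffold subunit, was at −1.49, TAF1, the largest subunit, at −1.40, and TAF3, which reads a histone mark of active promoters, at −1.10, with limma adjusted p of 1.35e-05, 0.000357 and 0.000231. TAF1 met the rule under 3, TAF4 under 2 and TAF3 under 0 of the 4 other scalings. TAF8, the TFIID partner of TAF10, was nearest to no change, at 5.96 ± 0.949 TPM in control and 6.26 ± 1.98 TPM in shFAM111B libraries (log2 fold change 0.04, 95% confidence interval −0.45 to 0.52). TBP itself was at −0.44 and within −0.05 to 0.09 under the other scalings. The TAF10 to TAF2 ratio was 2.04, 2.68 and 2.27 in control and 58.2, 52.7 and 75.5 in shFAM111B libraries. TAF15, an RNA-binding protein that carries the TAF name, was at −0.31 and was kept apart from TFIID.

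TFIIH opens the promoter DNA and also works in nucleotide excision repair. Of its 7 members 1 rose (14.3%, against 6.77% of all tested genes) and 4 fell (57.1%, against 23.7%). GTF2H5, the smallest subunit, which stabilises the complex, had 13.67, 14.22 and 12.44 TPM in control and 32.87, 32.38 and 39.13 TPM in shFAM111B libraries (log2 fold change 1.31, SE 0.0954, limma adjusted p = 2.24e-05). The groups lay far apart. GTF2H2C was at −1.47, GTF2H2 at −1.12, GTF2H3 at −1.08 and GTF2H1 at −1.02, with limma adjusted p of 3.03e-05, 6.22e-05, 0.000111 and 1.59e-05. GTF2H1 was at −0.995 without control replicate 1 and GTF2H3 at −0.99 without control replicate 2, and neither met the rule there. Of these 4 only GTF2H2C met it under other scalings, 3 of the 4. GTF2H2, GTF2H2C and the pseudogene GTF2H2B are near-identical copies that share reads. Their sum was 88.3 ± 2.49 TPM in control and 37.1 ± 3.62 TPM in shFAM111B libraries, a 2.38-fold lower mean. The log2 fold change of this sum was −1.23, and −0.87 relative to the median tested gene. Relative to the median tested gene, the TFIIH median was −0.66. It was −0.06 without GTF2H2, GTF2H2C and GTF2H4, which share sequence or exons with other genes. CDK7, the kinase of the complex, was at 0.19. The GTF2H5 to GTF2H1 ratio was 0.504 ± 0.0572 in control and 2.74 ± 0.271 in shFAM111B libraries.

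TFIIE and TFIIF had no called member, with 1 gene of each lower at an unadjusted p under 0.05 in limma (52.0% of all tested genes were). By the call rule 6.77% of all tested genes rose and 23.7% fell. The TFIIE subunits, which bring in TFIIH, were at 0.10 for GTF2E2 and −0.99 for GTF2E1. GTF2E1 met the rule without control replicate 2, at −1.03, and without shFAM111B replicate 3, at −1.05. Under the 4 other scalings it was between −0.61 and −0.46, short of a fold of 2. The TFIIF pair, which escorts the polymerase to the promoter, was not called, with GTF2F1 and GTF2F2 both at −0.17 in the deposited TPM and at or above 0.00 under every other scaling. Their ratio was 4.06 ± 0.366 in control and 4.08 ± 0.235 in shFAM111B libraries.

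Of the 3 P-TEFb members, both cyclins fell (66.7%, against 23.7% of all tested genes) and the kinase was not called. CCNT2 had 18.24, 15.34 and 16.94 TPM in control and 3.17, 3.39 and 3.02 TPM in shFAM111B libraries (log2 fold change −2.09, SE 0.0995, limma adjusted p = 4.73e-06). The control libraries were all above the shFAM111B libraries. CCNT1 had 9.22, 8.35 and 7.02 TPM in control and 3.14, 2.97 and 2.99 TPM in shFAM111B libraries (log2 fold change −1.18, SE 0.120, limma adjusted p = 0.000105), and was between −0.84 and −0.65 under the 4 other scalings. CDK9 was at 30.5 ± 3.12 TPM in control and 27.2 ± 1.48 TPM in shFAM111B libraries, with overlapping groups (log2 fold change −0.16). The CDK9 to CCNT2 ratio was 1.81 ± 0.166 in control and 8.54 ± 0.881 in shFAM111B libraries.

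GTF2I encodes TFII-I, a factor that binds initiator and upstream elements. It had 117.97, 100.23 and 95.97 TPM in control and 9.11, 12.14 and 4.52 TPM in shFAM111B libraries. The log2 fold change was −3.55 (SE 0.295, limma adjusted p = 4.03e-05). The shFAM111B libraries were low throughout but differed from each other by more than the controls did in proportion. GTF2I at chr7:74657667-74760692 has long copies elsewhere in the genome, so its value depends on how the reads were divided between them. GTF2IP4 was at 75.9 ± 1.37 TPM in control and 49.5 ± 3.48 TPM in shFAM111B libraries, and GTF2IP1 at 47.2 ± 3.08 and 47.2 ± 4.95 TPM. The sum of GTF2I and its 7 listed copies was 240 ± 10.96 TPM in control and 115 ± 2.92 TPM in shFAM111B libraries. That is a 2.09-fold lower mean, against 12.2-fold for GTF2I alone. The log2 fold change of the sum was −1.06 in the deposited TPM. Relative to the median tested gene it was −0.70, short of a fold of 2. The paralog GTF2IRD1 was not called, at 10.3 ± 3.21 and 11.1 ± 0.748 TPM with overlapping groups (log2 fold change 0.13).

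**Figure D3:**
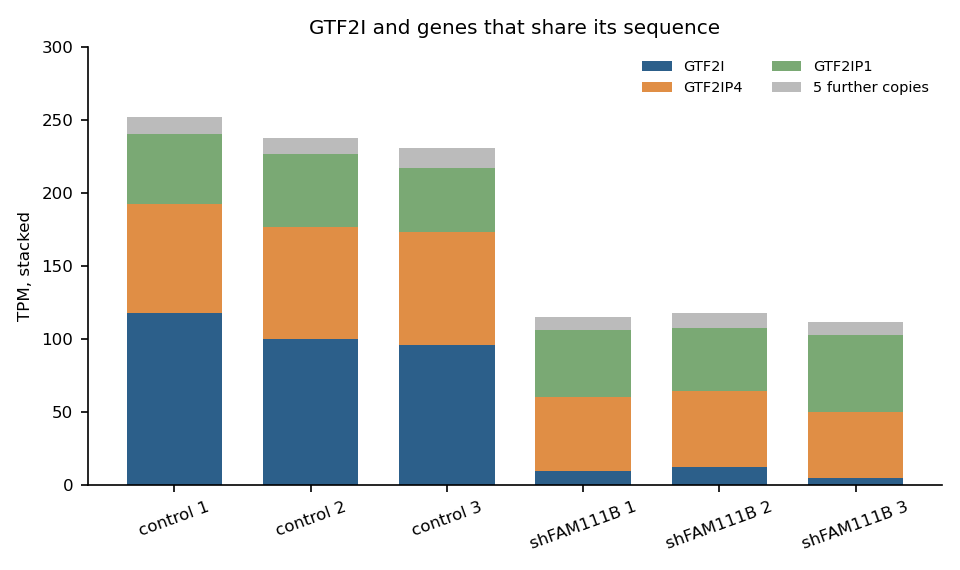
Stacked TPM of GTF2I (blue), GTF2IP4 (orange), GTF2IP1 (green) and 5 further copies (grey) in each of the 6 libraries. The blue part shrinks from 95.97 or more in every control to 12.14 or less in every shFAM111B library, the orange part shrinks less and the green part does not.

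The spread of levels inside each complex was measured within single libraries, over its selected members above the filter. A single factor applied to a library does not change this spread. Quantile normalization, which reshapes a library, can change it, and the spread was not computed after it. For the 12 core subunits of RNA polymerase II, the SD of log2 TPM across genes was 0.72 to 0.74 in the control libraries and 1.29 to 1.39 in the shFAM111B libraries. The highest subunit was 6.58 to 7.37 times the lowest in control libraries, POLR2E over POLR2D. It was 23.4 to 27.3 times the lowest in shFAM111B libraries, POLR2L over POLR2D. For 30 Mediator genes the SD was 0.95 to 0.96 in control and 1.35 to 1.47 in shFAM111B libraries, for 14 TFIID genes 1.38 to 1.41 and 1.97 to 2.08, and for 7 TFIIH genes 0.72 to 0.79 and 1.02 to 1.09. All 4 sets of members were wider in every shFAM111B library than in any control library. Subunits that the selection left out did not enter, namely CCNC, CDK19, ERCC2, ERCC3, CCNH and MNAT1. CCNC had 103.01 to 112.95 TPM in control libraries, above MED19, the highest Mediator member there. It had 38.93 to 42.44 TPM in shFAM111B libraries. The spread with these subunits included was not computed. Across the 13922 tested genes above 0 TPM in every library the SD also differed, at 2.29 in each control and 2.43 to 2.49 in the shFAM111B libraries. With 3 libraries against 3, an exact two-sided permutation test cannot give a p below 0.1, so none is given.

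**Figure D4:**
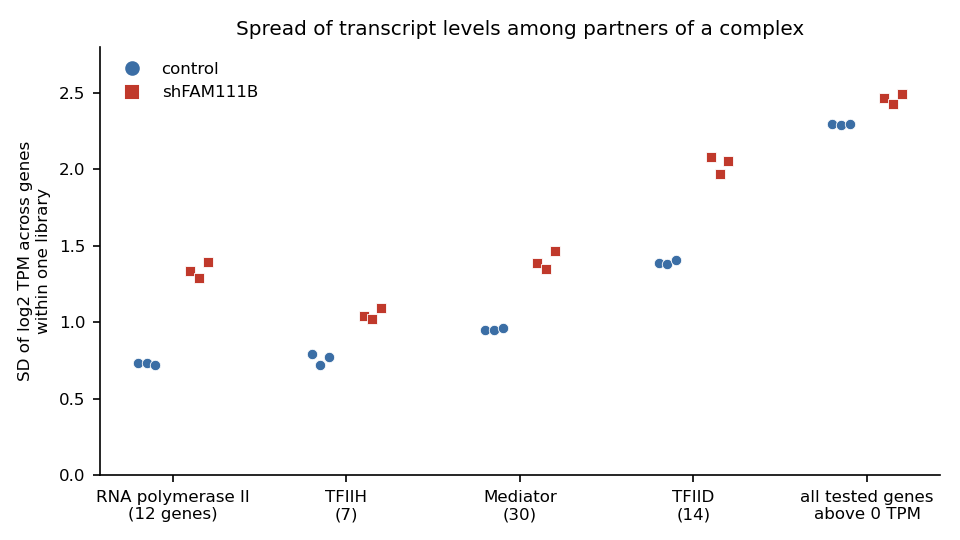
SD of log2 TPM across the selected members of a complex within one library (y axis), for 4 complexes and for all tested genes above 0 TPM, with control libraries as blue circles and shFAM111B libraries as red squares. In each column the red squares lie above the blue circles, from 0.72 to 0.74 against 1.29 to 1.39 for RNA polymerase II.

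The members that fell tended to have long coding sequences and those that rose short ones. Coding length was the longest coding sequence of the gene in GENCODE release 29. POLR2A was left out of this comparison because the annotation marks the reference genome as wrong at that gene. Across 76 members the log2 fold change and log2 coding length had a Pearson r of −0.60 (Spearman rho −0.61), and across 12031 tested protein-coding genes r was −0.37. With the length of the longest transcript in place of coding length, r was −0.50 across the members and −0.44 across 12023 protein-coding genes, which lie closer together. These are descriptions across genes measured in the same 6 libraries, and genes are not independent replicates.

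By class, the 20 members with up to 600 nt had a median log2 fold change of 0.22, against 0.27 for the 1602 genes of that class, and 3 rose and none fell by the limma call rule, against 16.7% and 9.18% of that class. The 27 members of the next class, up to 1200 nt, were at −0.37 against −0.21, and 18.5% of them fell, against 18.2% of that class. The 14 of the class up to 2400 nt were at −0.71 against −0.60, and 21.4% of them fell, against 28.5%. The 15 members over 2400 nt were at −1.40 against −0.84. Of these 15, 11 fell (73.3%), and 41.3% of all tested genes of that class did. The 11 were MED12, MED13, MED13L, MED14, MED23, TAF1, TAF2, TAF3, TAF4, GTF2I and POLR2B. MED1, MED16, MED24 and GTF2IRD1 were the long members that did not. Of the 11 that fell, only MED13, MED13L, MED14, TAF2 and GTF2I did so under every scaling.

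Several members stood far from the median of their own class. TAF10, with 654 nt, was 2.14 above it, and 99.4% of the class lay below TAF10. POLR2L was 1.49 and POLR2I 1.12 above the median of the shortest class. Relative to the median of their class, POLR2M, with 1104 nt, was at −3.37 and GTF2A1, with 1128 nt, at −1.51, and 3.36% of the class lay below GTF2A1. MED16, with 2631 nt, was 1.44 above the median of the longest class. A constant added to every log2 value of a library would not change these differences within a class. They were computed in the deposited TPM only and not under the other scalings.

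**Figure D5:**
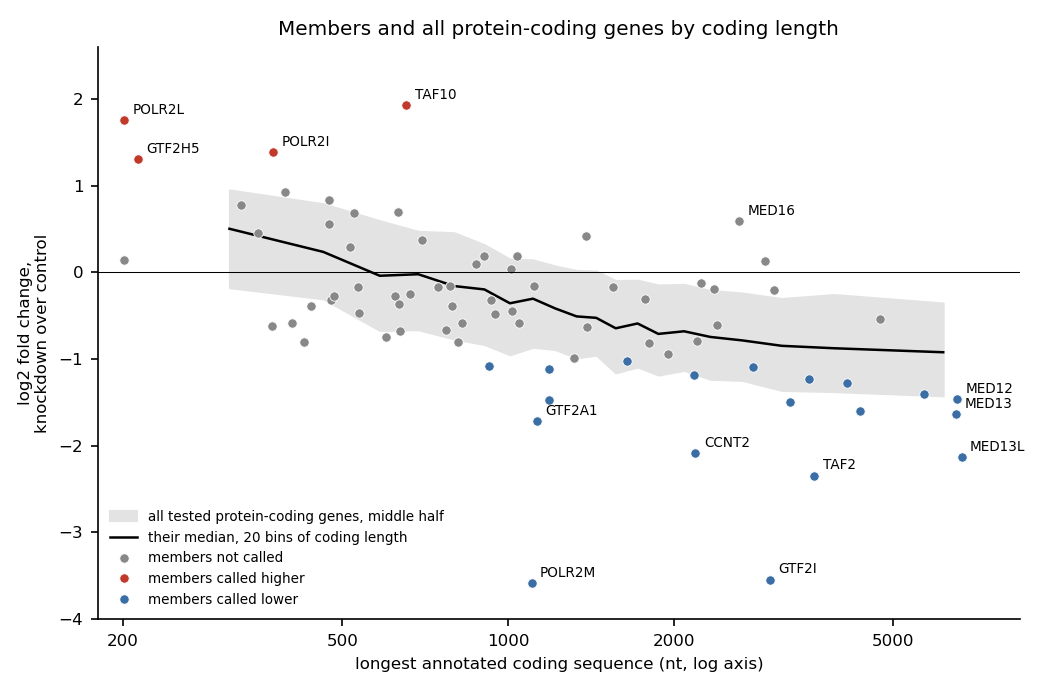
Log2 fold change (shFAM111B over control, y axis) against coding length in nt (log axis) for 76 members (points, coloured by call) over the median (black line) and interquartile range (grey band) of 12031 tested protein-coding genes in 20 bins. The line falls from left to right, the 4 members called higher lie above the band at its short end, and POLR2M and GTF2I lie furthest below it.

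Genes of the same pathways that the selection left out were counted from lists of named genes, to be read against the 6.77% of all tested genes that rose and 23.7% that fell. At an unadjusted p under 0.05 in limma, 22.1% of all tested genes were higher and 52.0% lower. Of 6 further TFIIH and Mediator kinase genes, 0 rose and 1 fell in limma (0 higher and 3 lower at an unadjusted p under 0.05). It was CCNC, the cyclin of CDK8, with 112.95, 108.73 and 103.01 TPM in control and 38.93, 42.44 and 38.94 TPM in shFAM111B libraries (log2 fold change −1.41). Of 15 pausing and elongation factors 0 rose and 5 fell, with 4 higher and 9 lower at an unadjusted p under 0.05, and RTF1 of the PAF1 complex had the largest change, at −1.76. In the super elongation complex and the control of P-TEFb, 0 of 10 rose and 4 fell, with 2 higher and 6 lower at an unadjusted p under 0.05. AFF4, the scaffold of that complex, had 8.57, 7.59 and 5.73 TPM in control and 0.6, 0.84 and 0.27 TPM in shFAM111B libraries (log2 fold change −2.40).

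Of 9 phosphatases of the C-terminal domain and polymerase assembly factors, 1 rose and 1 fell. SSU72, a phosphatase of that domain, rose by 1.15 on the log2 scale, from 76.3 to 171 TPM on average. Of 17 subunits that belong to RNA polymerases I and III alone, 0 rose and 6 fell (2 higher and 11 lower at an unadjusted p under 0.05), with POLR1F at −1.89. A further list held paralogs of members and genes that only share a name with them, with POLR2J3 under 2 identifiers. Of its 12 tested entries, 0 rose and 2 fell (1 higher and 8 lower). TAF1B, a subunit of the RNA polymerase I factor SL1, was at −1.72. The list medians ran from −0.90 for the super elongation list to 0.08 for the phosphatase list, against −0.36 for all tested genes. CCNC met the call rule under 2 of the 4 other scalings, and RTF1, AFF4, SSU72, POLR1F and TAF1B under all 4.

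RefSeq promoter sequences (GRCh38.p14) were at hand for 61 of the 78 members. Short promoter motifs were searched on both strands of the 250 bases before the start. The letters CCGGAAG, which ETS factors bind, were present in 20 of 61 member promoters (32.8%), in 16.5% of the promoters of tested genes and in 8.82% of all 27305 promoters. They were in 8 of 15 promoters of members that fell and in 0 of 3 of members that rose. Of these 8 genes only GTF2A1 fell under every scaling, and GTF2H2 and GTF2H2C are near-identical copies. The share among all genes that fell was not computed, and a link of the letters to the calls was not tested. The GC box GGGCGG was in 62.3% of member promoters, 66.6% of those of tested genes and 42.3% of all promoters. CCAAT was in 27.9%, 35.7% and 33.0%, and TATAAA in 6.56%, 5.76% and 11.1%. The letters AAGATGGC, bound by YY1, were in 4.92%, 1.92% and 1.37%. A match is only a description of the letters.

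The 100 bases before the start are shown for 2 genes that rose and 2 that fell under every scaling, with the motifs above in capitals. They were chosen among those 12 genes as ones that had a promoter in the table and a window lying outside the annotated gene but for at most 30 bases. POLR2L is at chr11:842530-842629 (minus strand), GTF2H5 at chr6:158168250-158168349 (plus), GTF2A1 at chr14:81221391-81221490 (minus) and MED13L at chr12:116277694-116277793 (minus).

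POLR2L: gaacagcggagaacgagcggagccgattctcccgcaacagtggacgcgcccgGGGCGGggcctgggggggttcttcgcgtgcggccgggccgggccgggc

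GTF2H5: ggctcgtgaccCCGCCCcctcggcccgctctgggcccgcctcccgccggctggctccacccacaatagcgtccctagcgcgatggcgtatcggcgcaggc

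GTF2A1: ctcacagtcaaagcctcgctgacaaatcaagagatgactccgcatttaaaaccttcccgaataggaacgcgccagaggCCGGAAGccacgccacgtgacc

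MED13L: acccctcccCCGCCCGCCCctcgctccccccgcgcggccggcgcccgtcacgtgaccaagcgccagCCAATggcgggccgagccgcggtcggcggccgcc

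The capitals mark a GC box in POLR2L and in GTF2H5, where it stands as CCGCCC on the shown strand, the ETS letters in GTF2A1, and overlapping GC boxes and a CCAAT box in MED13L.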

How the data were processed

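RNA sequencing of Huh7 cells gave 3 control and 3 shFAM111B libraries, with groups taken from the genotype labels. The table the authors deposited holds TPM per library, group means and their own fold changes and p-values, which were not used. The submitters' notes name RSEM, DESeq2 and hg38 without versions or roles, and the aligner and annotation are not given in the sources used here. TPM hold no counts, so no count test was run and the precision that depth gives is unknown. Library totals were 978634 to 997094 TPM.

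The filter kept a gene if 3 or more libraries reached 1 TPM. Values of log2(TPM + 1) were then fitted in limma version 3.58.1 (R version 4.3.3; lmFit, eBayes with trend, no covariates), with Benjamini-Hochberg adjustment and a call at a fold of 2 and adjusted p under 0.05. Fold changes of low genes are understated on this scale. On data simulated from the means and spreads of these libraries (14394 genes), 190 of 200 changed genes and 2 unchanged genes were called. The simulated shifts all exceeded a fold of 2 and were given only to genes above a minimum level. The other genes were left unshifted, whereas in the real libraries the median gene moved. These counts are therefore a check of the fit and not error rates of the calls reported here. Lengths and positions came from GENCODE release 29, which held 96.3% of the listed gene identifiers.

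Text names every polymerase subunit, all called members of each role group and the uncalled one nearest to 0, paralog pairs, and the most changed gene of each related list. MED17, MED31, MED16, MED24, MED1, TBP and GTF2E1 and the ratios were chosen after their values were seen. Members and lists were chosen with earlier results of these data known. Alternatives tried were another pseudocount, no filter and a stricter filter, 5 other scalings, no minimum fold, a replicate block, each library left out, subtraction of the median of genes of like transcript length and, added after seeing the data, sums over near-identical copies and the removal of genes that share sequence.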

Additional observations from a re-analysis of the deposited data

How the results depend on the processing

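Against 4 members called higher and 19 called lower, median-of-ratios scaling gave 11 and 12, upper-quartile scaling 9 and 12, quantile normalization 5 and 11, and median centring 11 and 8. Without a minimum fold the counts were 17 and 46. Leaving out 1 library at a time gave 4 to 5 higher and 18 to 20 lower. The count of lower members was 15 when POLR2M, GTF2I, GTF2H2, GTF2H2C, POLR2J, GTF2H4 and TAF9, which share sequence or exons with other genes, were removed, because fewer members were then counted. The median member relative to the median tested gene was −0.03. It was 5.09e-05 with a pseudocount of 0.1, 0.00459 with median-of-ratios and 0.00139 with upper-quartile scaling, 0.0202 under quantile normalization, and −0.0853 to −0.0308 with 1 library left out, the lowest without control replicate 3. Relative to genes of the same transcript length class it was −0.30. The median of the RNA polymerase II core relative to the median tested gene was 0.79. It was 0.85 with a pseudocount of 0.1 and under median-of-ratios scaling, 0.84 under upper-quartile scaling, 0.43 under quantile normalization, 0.32 relative to the same transcript length class, 0.66 without the genes that share sequence and 0.76 to 0.82 with 1 library left out. The cause of these shifts was not tested. The other filters and rescaling to nuclear protein-coding genes kept these counts within 1.5 times.

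The replicate numbers are shared by the groups, but same-numbered libraries deviated together only weakly (correlations of 0.0540, 0.0349 and 0.0908), and not every library correlated best with its own number, so the numbers were not taken as pairs. With the replicate number as a block, 4 members were called higher and 19 lower, the medians were −0.03 and 0.79, and 983 genes were higher and 3402 lower in all. With 3 libraries a group and TPM in place of counts, neither depth nor between-culture variation can be read from these data.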
